A study of Homo sapiens with 7 samples.

Results

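Tight junctions seal the space between neighbouring epithelial cells. The genes described here code for parts of that seal: the claudins CLDN1, CLDN2, CLDN3, CLDN4, CLDN5, CLDN7 and CLDN12, the membrane protein occludin (OCLN), the scaffold protein ZO-1 (TJP1) and the junctional adhesion molecule JAM-A (F11R). They were named as a list, with earlier results of these data known, and no measured value entered the rule. They are 10 of 20163 protein-coding genes annotated by GENCODE on hg19. Every interval of 6 peak lists that touched the gene body or the 10 kb on either side of it was taken, which gave 138 intervals.

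The peaks come from chromatin immunoprecipitation sequencing (ChIP-seq) of HCT116 cells, an established human colorectal carcinoma line, without any treatment named in the labels. Cells were grown in a 96-well plate at 200000 cells per well, cross-linked, and sheared for 6 min in 100 µl with PIXUL. This sonicator takes a whole 96-well plate and treats its columns in pairs, in turn. Each antibody was used on the chromatin of a single well, so there was 1 library per mark and no replicate: all values are descriptions of these libraries, no difference was tested, and the depth is unknown. Lists for H3K4me3, H3K9Ac, H3K4me1, H3K36me3, H3K27me3 and CTCF were used, and H3K27Ac was not analysed here.

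Claudins are small membrane proteins whose outer loops pair across the gap between cells. Most of them tighten the seal, whereas some, CLDN2 among them, form channels for small ions. Occludin lies in the same strands, and ZO-1 ties the strands to the actin cytoskeleton. Of the marks, H3K4me3 and H3K9 acetylation stand at active promoters, H3K4me1 stands at enhancers and beside promoters, H3K36me3 accompanies transcribed gene bodies, H3K27me3 marks Polycomb-repressed chromatin, and CTCF is a DNA-binding protein that anchors chromatin loops.

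A peak is called past the limits where it met the filter of the study's methods. For H3K4me1 and H3K27me3 the fold enrichment had to exceed 2 at a q-value under 1e-03. For the other marks it had to exceed 5 at a q-value under 1e-10, and CTCF, for which no limits are named, was placed with these. Fold enrichment is a linear ratio, the signal in a peak over what the peak caller expected there, and it can be compared within a list but not between lists. The transcription start site (TSS) is that of the canonical transcript, and a peak is at the TSS where it lies within 1 kb of it.

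The line was checked by its markers. H3K4me3 stood at the TSS of 5 of 10 epithelial and intestinal genes: EPCAM (fold enrichment 30.4), CDH1 (25.1), KRT8 (21.8), KRT18 (24.4) and the intestinal transcription factor CDX2 (31.6). Over all protein-coding genes the share was 59.1%, so the count of 5 of 10 does not by itself mark the line as epithelial. KRT20, CDX1, VIL1, GPA33 and LGALS4, which mark differentiated intestinal cells, had no peak of any mark at the TSS. Of 9 genes of other cell types, COL1A1 alone had H3K4me3 (9.21), and the endothelial CDH5 and the leukocyte genes PTPRC and CD3E had no mark.

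The members fell into 5 patterns at the TSS, and 3 promoters of different patterns are shown as bases of the hg19 reference, with CpG dinucleotides in capitals. They run 5′ to 3′ on the gene's strand, end at the base before the TSS and lie in no annotated exon. The CLDN3 promoter (chr7:73184601-73184850, minus strand) carried all 3 active marks. The CLDN1 promoter (chr3:190040236-190040329, minus strand) carried CTCF alone, and the CLDN2 promoter (chrX:106163382-106163631, plus strand) had H3K4me1 alone nearby.
CLDN3 promoter: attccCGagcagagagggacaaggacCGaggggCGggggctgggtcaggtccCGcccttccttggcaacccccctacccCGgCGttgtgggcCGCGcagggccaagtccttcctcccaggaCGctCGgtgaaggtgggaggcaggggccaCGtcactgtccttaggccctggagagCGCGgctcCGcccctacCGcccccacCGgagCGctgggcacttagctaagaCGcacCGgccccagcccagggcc
CLDN1 promoter: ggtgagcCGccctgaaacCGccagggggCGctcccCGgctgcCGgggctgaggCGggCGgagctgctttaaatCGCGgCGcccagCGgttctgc
CLDN2 promoter: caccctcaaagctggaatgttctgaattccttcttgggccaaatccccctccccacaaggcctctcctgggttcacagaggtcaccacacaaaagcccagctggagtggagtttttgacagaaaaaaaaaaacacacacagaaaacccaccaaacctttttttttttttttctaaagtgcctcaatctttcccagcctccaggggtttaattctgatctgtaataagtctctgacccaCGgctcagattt
The CLDN3 and CLDN2 stretches are of equal length, 250 bases, and hold 19 and 1 CpG. The CLDN1 stretch holds 11 CpG in 94 bases.

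H3K4me3 and H3K9Ac passed the limits at the TSS of the same 7 members, CLDN3, CLDN4, CLDN7, CLDN12, OCLN, TJP1 and F11R. The share of all protein-coding genes with such a peak was 59.1% for H3K4me3 and 58.5% for H3K9Ac, so 7 of 10 members is near the share of all genes. H3K4me1 passed at 8 members, these 7 and CLDN2, against 49.1% of genes. Under the limits of the other marks it passed at 2 members, CLDN4 and CLDN7, and at 1412 of the 20163 genes, so the H3K4me1 part of the other members' patterns rests on the looser limits. CTCF passed at 2 members, CLDN1 and CLDN7, against 13.6%. No member had H3K36me3 (0.298% of genes) or H3K27me3 (1.22%) past the limits at the TSS, and 0 of 10 is near these low shares.

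In the whole window, H3K4me3 (69.1% of all genes) and H3K9Ac (68.3%) were each in the window of 7 members, and H3K4me1 (71.9%) in that of 8. CTCF was in the window of 8 members, all but CLDN3 and CLDN5, where 62.4% of genes had such a peak. H3K36me3 (0.789%) and H3K27me3 (3.94%) passed the limits in no window. These counts depend on window length, which ran from 21274 bp at CLDN3 to 289548 bp at TJP1.

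**Figure D1:**
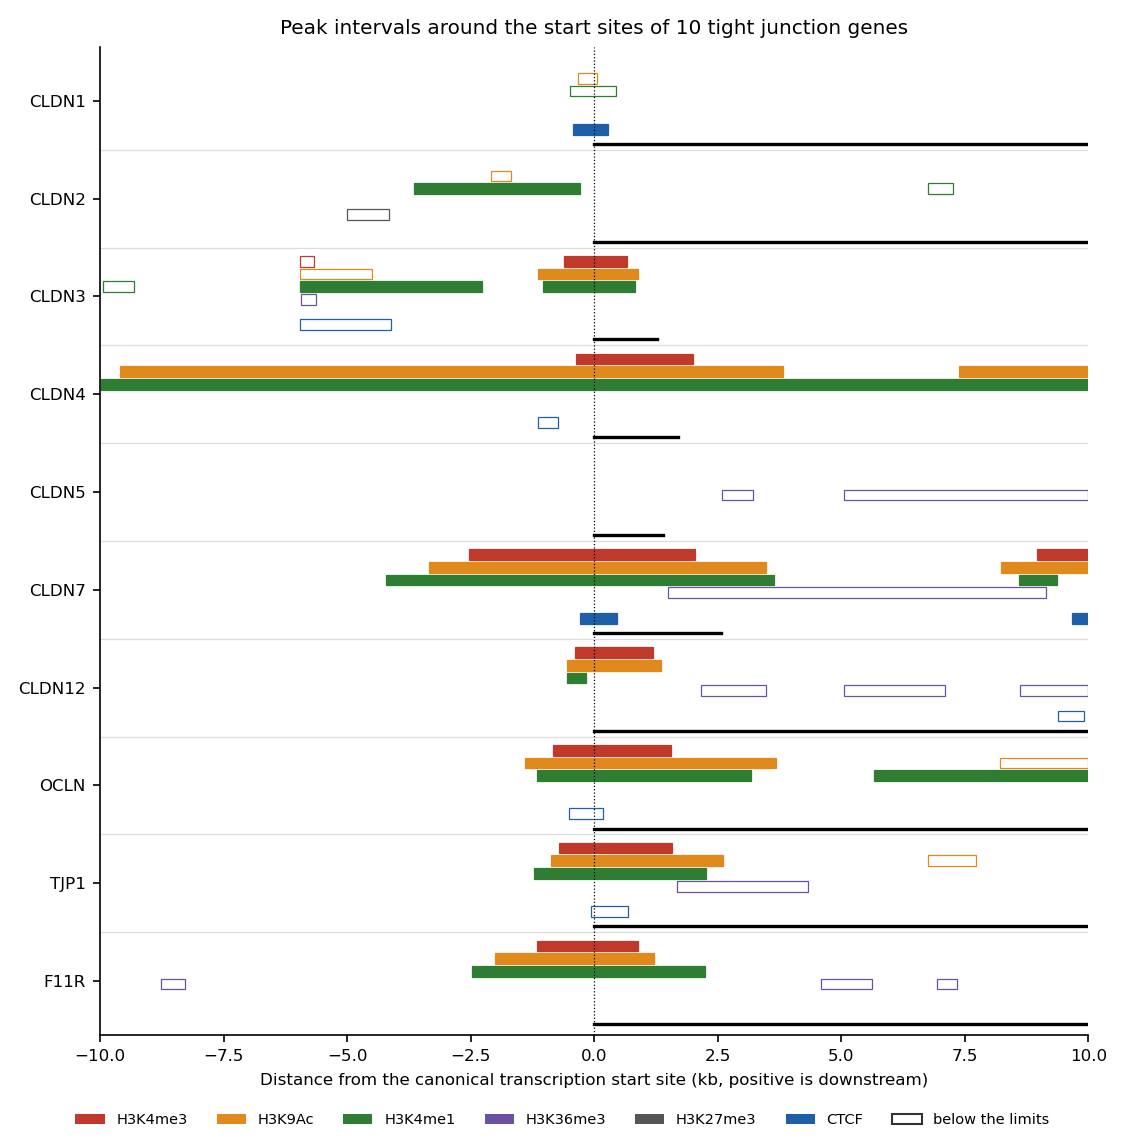
Intervals of the 6 marks within 10 kb of the start sites of the 10 genes, by distance from the canonical TSS in kb; filled bars passed the limits, open bars did not, and black lines are the canonical transcripts. CLDN1 has CTCF over the TSS and no filled bar of another mark, CLDN5 has no filled bar, and 7 genes have H3K4me3, H3K9Ac and H3K4me1 together.

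Of the 138 intervals, 64 passed the limits, and 24 of these stood at a TSS. By mark, 11 of 14 H3K4me3 intervals, 12 of 29 H3K9Ac, 28 of 37 H3K4me1 and 13 of 26 CTCF intervals passed. Over the whole lists 79.1%, 37.2%, 63.9% and 54.8% passed, in that order. All 31 H3K36me3 intervals and the single H3K27me3 interval were below the limits. In the whole lists only 0.225% of H3K36me3 and 2.81% of H3K27me3 intervals passed, so nearly all intervals of these marks are below the limits anywhere. The windows with most intervals past the limits were those of CLDN4 and TJP1, with 13 each, followed by OCLN with 11 and CLDN7 with 9. The counts of CLDN4, OCLN and CLDN7 include peaks over the start sites of neighbouring genes. CLDN12 and F11R had 5 each, CLDN3 had 4, CLDN2 had 3, CLDN1 had 1 and CLDN5 had 0.

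The pattern of H3K4me3, H3K9Ac and H3K4me1 without CTCF was held by 6 members, CLDN3, CLDN4, CLDN12, OCLN, TJP1 and F11R, and by 33.5% of protein-coding genes (6748). CLDN7 had the same 3 marks with CTCF, as had 9.07% of genes (1829). CLDN5, with no mark, shared its state with 33.9% (6829). The patterns of CLDN2, H3K4me1 alone (648 genes, 3.21%), and CLDN1, CTCF alone (222 genes, 1.10%), were the least common.

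The H3K4me3 peaks at the 7 start sites ranged in fold enrichment from 10.1 to 30.2. OCLN (fold enrichment 30.2), CLDN7 (29.2) and TJP1 (27.1) lay above the median of the 11924 genes with such a peak, which was 22.5. CLDN4 (15.8), CLDN3 (13.4), F11R (13.2) and CLDN12 (10.1) lay below it. The percentiles among those genes were 83.2, 79.9 and 72.4 for the former, and 19.2, 12.4, 11.9 and 5.39 for the latter, in the order given. Neighbours in this order, such as OCLN and CLDN7 or CLDN3 and F11R, cannot be told apart without a replicate.

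For H3K9Ac the same 3 members lay above the gene median. The fold enrichment was 17.0 at CLDN7, 14.4 at TJP1 and 13.3 at OCLN, and the median over the 11797 genes with such a peak was 13.1. It was 8.96 at F11R, 8.61 at CLDN3, 8.34 at CLDN4 and 6.18 at CLDN12. The CLDN12 peak was near the limits, with a −log10 q-value of 11.1, and at percentile 0.280 among genes.

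H3K4me1 gave another order. CLDN4 (6.75), CLDN3 (6.07) and CLDN7 (5.64) were highest, and the median over 9892 genes was 4.69. TJP1 (4.67), F11R (4.62), CLDN2 (4.46), OCLN (4.17) and CLDN12 (3.92) lay under it. CLDN4 and CLDN3, below the gene median for H3K4me3, were thus at percentiles 90.1 and 83.1 for H3K4me1, whereas OCLN, at percentile 83.2 for H3K4me3, was at 26.1.

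**Figure D2:**
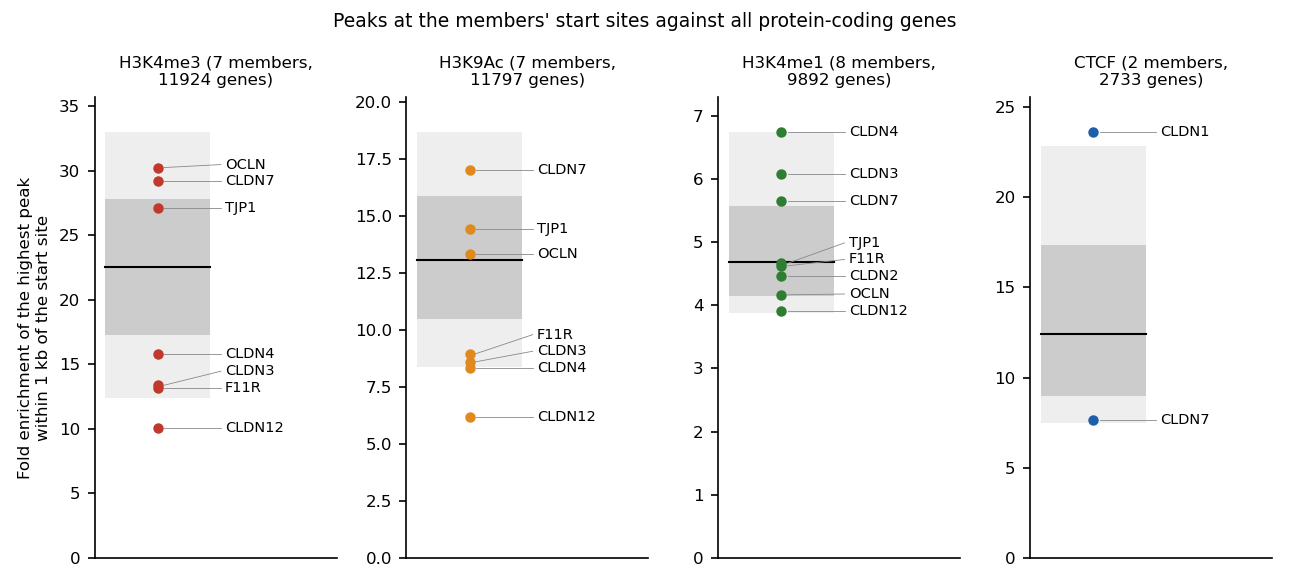
Fold enrichment of the highest peak past the limits within 1 kb of the TSS, on a linear axis for each mark; points are members, the black line is the median of all protein-coding genes with such a peak, and the dark and light boxes span the 25th to 75th and 10th to 90th percentiles. OCLN, CLDN7 and TJP1 sit above the gene median for H3K4me3 and H3K9Ac, and CLDN1 sits above the box for CTCF at 23.6.

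The H3K4me3 peak lay inside the H3K9Ac peak in 7 of 7 members, as it did in 91.1% of the 8691 genes with all 3 marks. The H3K9Ac peak lay inside the H3K4me1 peak in 3 of 7, CLDN4, CLDN7 and F11R, against 21.9% of those genes. In OCLN, CLDN3, CLDN12 and TJP1 it reached beyond the H3K4me1 peak.

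CLDN7, a basolateral claudin of epithelia, had the widest H3K4me3 peak of the members. It measured 4578 bp, at percentile 98.1 of width among genes, and ran from −2543 to 2034 bp around the TSS over exons 1 to 3 and part of exon 4. The H3K9Ac peak (6816 bp) and the H3K4me1 peak (7863 bp) covered all 4 exons of the gene. A CTCF peak with a fold enrichment of 7.65 lay over the TSS, from −291 to 452 bp. All 4 peaks also contained the TSS of another annotated protein-coding gene, ENSG00000262302, and the share of each gene in them cannot be told apart. Downstream, from 8242 to 12793 bp, the window reached the shared promoter of CTDNEP1 and ELP5, with H3K4me3 (27.4), H3K9Ac (16.7) and CTCF (8.69), and these peaks lie at the start sites of the neighbours.

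CLDN4, a claudin that tightens the seal, lay in the widest H3K4me1 domain. The peak measured 22264 bp, at percentile 99.5 of width among genes, and ran from −9988 to 12275 bp around the TSS, far past both ends of the 1695 bp canonical transcript. It also covered the TSS of METTL27, the next gene. The H3K9Ac peak of 13429 bp was at percentile 98.3 of width, while the H3K4me3 peak was of usual width, 2384 bp.

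Farther upstream of CLDN4 the marks came in separate blocks. An annotated alternative start 31454 bp upstream carried H3K4me3 (8.48), H3K9Ac (9.72) and H3K4me1 (6.81). Another block, from −24208 to −18636 bp, had H3K4me1 (4.96), H3K9Ac (6.88) and CTCF (7.11) but no H3K4me3 past the limits (3.94, below). H3K4me1 peaks from −14772 to −13377 bp (4.41) and from −38279 to −35974 bp (4.68) had only H3K9Ac below the limits, at 2.63 and 2.96.

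CLDN3, the other sealing claudin on chromosome 7, is a gene of 1 exon whose body ends 29271 bp from that of CLDN4, and their windows did not meet. Its peaks were compact: 1265 bp for H3K4me3, 2036 bp for H3K9Ac and 1865 bp for H3K4me1. An H3K4me1 peak from −5950 to −2261 bp passed the limits (3.59), with intervals below the limits in H3K4me3 (4.61), H3K9Ac (4.03), H3K36me3 (3.28) and CTCF (5.08). The upstream edges of these intervals in 5 libraries lay within 9 bp of each other, at a run of 55 A bases in the reference (chr7:73190496-73190550). The part of this run in the values was not tested.

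CLDN12, which lacks the C-terminal motif by which other claudins bind ZO-1, had the lowest H3K4me3 and H3K9Ac fold enrichments of the 7. Its H3K4me1 peak measured 384 bp, at percentile 1.47 of width, and lay upstream of the TSS, from −557 to −174 bp. The H3K4me3 and H3K9Ac peaks also covered the start of a long non-coding RNA. The CLDN12 start 19740 bp upstream had no mark past the limits, and the 3 starts farthest downstream, of which the last lies 90709 bp away, had no interval of any mark.

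CLDN1, a sealing claudin with a main role in the skin barrier, had CTCF where other members had the active marks. The CTCF peak over its TSS (chr3:190039955-190040655, −420 to 280 bp) reached a fold enrichment of 23.6, with 68.0 as its −log10 q-value, at percentile 92.2 of the 2733 genes with CTCF at the TSS. Of these genes, 227 had none of H3K4me3, H3K9Ac and H3K4me1 past the limits at the TSS, with a median CTCF fold enrichment of 9.84, and CLDN1 ranked 1 among them. H3K4me3 had no interval in the window. H3K4me1 (3.84) and H3K9Ac (3.20) had an interval over the TSS, both below the limits. The −log10 q-value of the H3K4me1 interval was 2.99, just outside the limit, and that of the H3K9Ac interval was 2.04.

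CLDN2, the channel-forming claudin, had H3K4me1 from −3656 to −290 bp (4.46) and no interval of H3K4me3 in its window. This peak covered an annotated start 2042 bp upstream of the canonical one, where H3K9Ac was below the limits (3.26). Farther upstream, from −25776 to −21728 bp, it had H3K4me1 (4.21) beside a CTCF peak (10.2). The single H3K27me3 interval of all windows was here, from −5001 to −4146 bp, at a fold enrichment of 2.60 and below the limits (−log10 q-value 1.03).

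CLDN5, the claudin of endothelium and the blood-brain barrier, had no interval of H3K4me3, H3K9Ac, H3K4me1, H3K27me3 or CTCF in its window of 24522 bp. Its 2 intervals were H3K36me3 below the limits (3.03 and 2.74), both downstream of the gene.

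Occludin had H3K4me3 above the gene median, over a peak of 2385 bp, and a row of H3K4me1 peaks inside the gene. They lay in intron 1 (5.04), intron 3 (4.41) and at 2 places in intron 4 (5.75 and 4.68). Intervals of H3K9Ac below the limits lay under those in intron 1 (4.13) and under the wider peak in intron 4 (4.01 and 3.56), and the other 2 had none. At the 3′ end, H3K4me3 (18.5), H3K9Ac (12.8), H3K4me1 (4.07) and CTCF (11.1) stood over the TSS of GTF2H2C. These 4 peaks had near-identical copies elsewhere in hg19, counted where 50% or more of the peak matched with an identity of 95% or more, and no other of the 64 peaks had one. How reads were divided among the copies was not tested.

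TJP1 showed H3K4me3, H3K9Ac and H3K4me1 together at the canonical TSS and the annotated starts next to it, 6 starts in all. No start farther away had the 3 marks together. The annotated start of TJP1 farthest upstream, 146447 bp from the canonical one, had no interval of any mark within 1 kb. Between the starts, H3K4me1 peaks lay at −99956 to −97332 bp (5.25), −104831 to −101534 bp (5.95) and −112700 to −111175 bp (3.66). Another lay nearer the canonical start, at −22698 to −20747 bp (4.93). A CTCF peak of 15.4 lay inside the H3K4me1 peak of 5.95, and a CTCF peak of 7.12 lay beside that of 3.66. The strongest H3K4me1 peak of the gene (6.56) was inside it, from 83752 to 88818 bp, over exons 11 and 12. A CTCF peak beyond the 3′ end, from 129517 to 130037 bp, was just inside the limits, with 10.1 as its −log10 q-value.

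F11R, an adhesion protein of the immunoglobulin family, had its 3 active marks at the TSS and another marked region at the 3′ end. An H3K4me1 peak of 8335 bp (5.17) ran from 23406 to 31740 bp, over part of exon 10 and the sequence beyond it. It contained a CTCF peak (11.9) and overlapped 2 CTCF intervals below the limits (4.58 and 5.94). H3K9Ac there was below the limits (2.94).

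**Figure D3:**
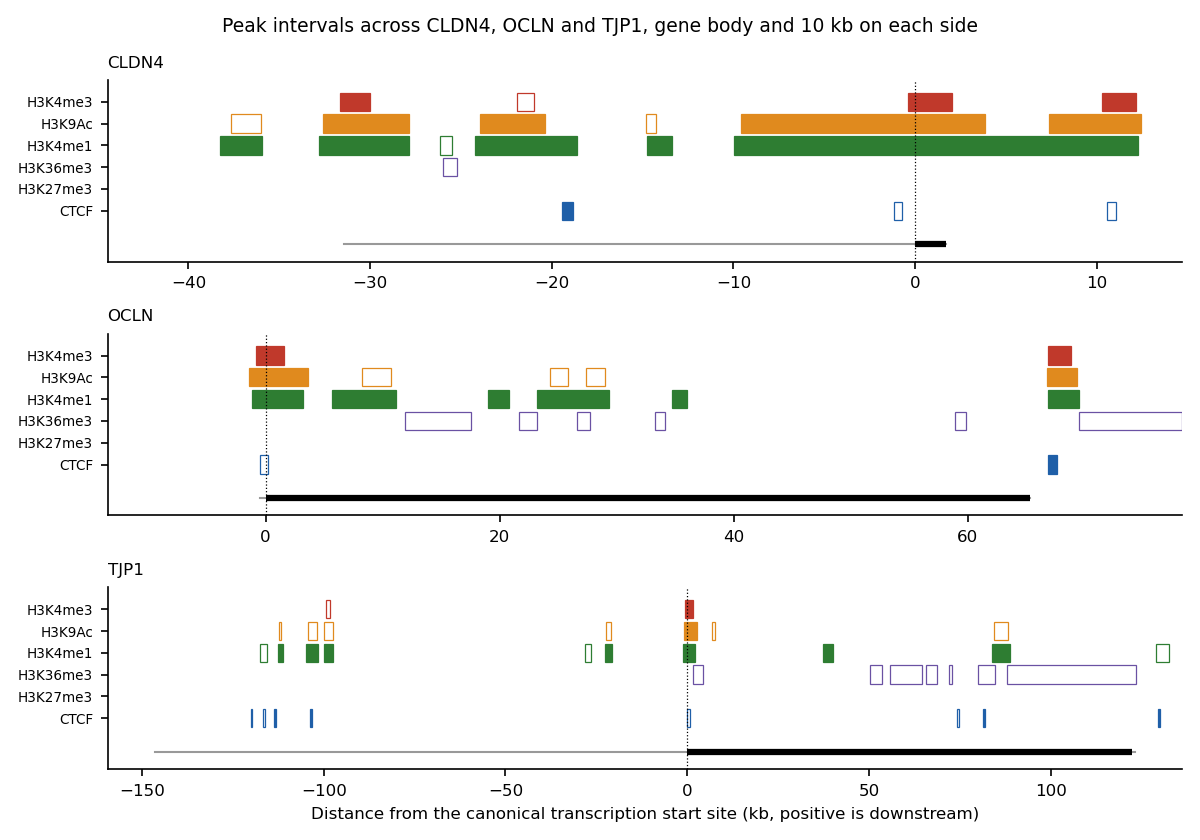
Intervals of the 6 marks across CLDN4, OCLN and TJP1, gene body and 10 kb on each side, by distance from the canonical TSS in kb; filled bars passed the limits, open bars did not, black bars are canonical transcripts and grey lines whole gene bodies. CLDN4 lies in an H3K4me1 peak of 22264 bp, OCLN has 4 H3K4me1 peaks in introns, and TJP1 has H3K4me1 and CTCF peaks far upstream of its canonical start, near −103895 bp.

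More than 1 kb from every annotated start of a protein-coding gene, the windows held 14 H3K4me1 peaks past the limits. They overlapped H3K9Ac past the limits in 1 case, against 11.1% of the 19655 such peaks in the genome, and any deposited H3K9Ac interval in 11 cases, against 68.0%. CTCF past the limits overlapped 4 of the 14, against 17.8%, and any H3K4me3 interval 3, against 15.6%. No test was made of these counts.

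Annotated starts of the 10 genes formed 32 groups, joined where they lay within 1 kb of each other. H3K4me3 past the limits was at 10 of them. Of the 22 groups that did not hold the canonical start, 3 had H3K4me3: the distant start of CLDN4, and starts of CLDN7 and CLDN12 that lie 1333 and 2120 bp from the canonical one. At CLDN7 and CLDN12 this was the same peak as at the canonical start, and only the CLDN4 start had a separate peak.

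The H3K36me3 intervals, all below the limits, are given as deposited. They covered 36.6% of the gene body at F11R, 26.8% at CLDN7, 21.5% at TJP1, 15.2% at OCLN, 8.81% at CLDN12 and 2.32% at CLDN4. CLDN1, CLDN2, CLDN3 and CLDN5 had none in the body. Some cover was thus present at 6 of 10 members and at 56.3% of all protein-coding genes, with a median of 5.56% over the members and 4.83% over all genes. The members with H3K36me3 in the body were all among the 7 with H3K4me3 at the TSS. The cover at CLDN7 came from 1 interval of 7661 bp, from 1484 to 9144 bp downstream of the TSS. Most of that interval lay beyond the 3′ end of the gene, so the share of CLDN7 in it cannot be told apart from that of its neighbours.

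Over the canonical transcript alone the order changed, to 52.1% at CLDN12, 46.7% at TJP1, 42.4% at CLDN7, 36.8% at F11R and 15.3% at OCLN. The gene body of CLDN12 measures 129682 bp and its canonical transcript 12494 bp, and those of TJP1 measure 269548 and 122316 bp. At TJP1 an interval of 35489 bp covered exons 13 to 28 and part of exon 12, and at F11R an interval of 5478 bp covered exons 2 to 9 and part of exon 10. At CLDN4 the interval lay upstream of the canonical transcript, which itself had none.

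**Figure D4:**
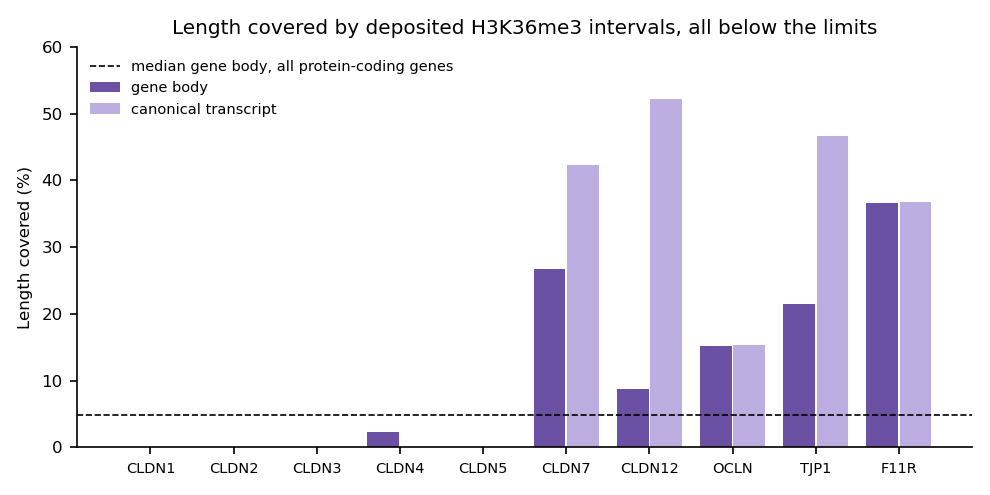
Percent of the gene body (dark bars) and of the canonical transcript (pale bars) covered by deposited H3K36me3 intervals, with the median gene body of all protein-coding genes (4.83%) as a dashed line. F11R, CLDN7, TJP1, OCLN and CLDN12 lie above the line, and CLDN1, CLDN2, CLDN3 and CLDN5 are at 0.

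H3K27me3 past the limits was in no window. The nearest peak past the limits lay 261661 bp from the TSS of TJP1, 468701 bp from that of CLDN7 and 688362 bp from that of CLDN5. At the other members the distance ran from 1049416 bp (F11R) to 6606049 bp (CLDN12). Over all protein-coding genes the median distance was 891897 bp and the 75th percentile was 2.14e+06 bp. The median over the members was 1.76e+06 bp, and CLDN2, CLDN3, CLDN4 and CLDN12 lay above that 75th percentile. Deposited H3K27me3 intervals covered part of the body of 1 of 10 members, CLDN2 (2.79%), and of 20.7% of protein-coding genes. The 3 members without H3K4me3 at the TSS, CLDN1, CLDN2 and CLDN5, thus had no H3K27me3 past the limits either.

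CTCF peaks were searched for the CTCF core consensus, a 12-base pattern with some free positions, on both strands. None of the 13 peaks past the limits in the windows held an exact match, whereas 22.4% of the 24536 CTCF peaks in the list did (5490 peaks, 95% Wilson interval 21.9 to 22.9%, counting error only). The count rests on 13 peaks only, and the difference from the whole list was not tested. With 1 mismatch, 7 of the 13 matched, against 65.9% of all CTCF peaks past the limits (16178 peaks, 95% Wilson interval 65.3 to 66.5%), so a match at this level is usual. The 7 sites are shown to give the sequence under the peaks, with 9 bases of hg19 on either side and the core in capitals, 5′ to 3′ on the matching strand.
CLDN1 window: gccctgaaaCCGCCAGGGGGCgctccccgg
CLDN2 window: agagctcagCCACTAGAGGGGgctgcctgt
CLDN7 window: gtcatgacgCCATCAGAGGGCgccagagca
CLDN12 window, 5′ site: ttaggttagCCACTAGATGTCatgattgtt
CLDN12 window, 3′ site: ctgttgctgCCAACAGATGGCattagtagt
TJP1 window: caatcctggCCACTAGATGCCagtagcagt
F11R window: gatatgctaCCACTAGGTGGAgccagactc
The CLDN1 core lies at chr3:190040301-190040312 on the minus strand, upstream of the TSS within the promoter printed above, and departs from the consensus by A3G, with positions counted from 1 at the 5′ end of the core and the consensus base given before the base of the site. The cores in the other windows lie at chrX:106137757-106137768 (plus strand, CLDN2), chr17:7155828-7155839 (plus, CLDN7), chr7:90057266-90057277 (minus) and chr7:90084927-90084938 (plus, both CLDN12), chr15:30033097-30033108 (minus, TJP1) and chr1:160960220-160960231 (minus, F11R). The CTCF peak over the CLDN7 TSS and the strongest TJP1 peak (15.4) held no match with 1 mismatch. The single exact match, in CLDN12, was in an interval below the limits (3.19).

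The CpG content of the promoters spanned a wide range. Over 250 bases before and 50 bases after the TSS, the number of CpG was 36 at TJP1, 31 at CLDN1, 30 at CLDN7, 29 at CLDN5, 28 at OCLN, 26 at F11R, 24 at CLDN3, 15 at CLDN12, 5 at CLDN4 and 2 at CLDN2. The median was 29 over genes with H3K4me3 at the TSS and 7 over genes without. CLDN1 and CLDN5 thus had as many CpG as a usual H3K4me3-marked promoter but no H3K4me3, and CLDN4 had H3K4me3 with fewer CpG than the median unmarked promoter.

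Short motifs were counted in the same 300 bases on both strands. GGGCGG, the GC box, was in 7 of 10 promoters, against 61.0% of the 20140 promoters searched. TATAAA, the TATA box, was in 0 of 10, against 9.81%. CAGGTG, the form of the E-box to which the Snail repressors bind, was in 4 of 10, against 20.4%: it occurred 5 times at CLDN7, 3 times at F11R, 2 times at OCLN and 1 time at CLDN3, all of them promoters with H3K4me3. A match gives letters in a window and not a bound site.

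**Figure D5:**
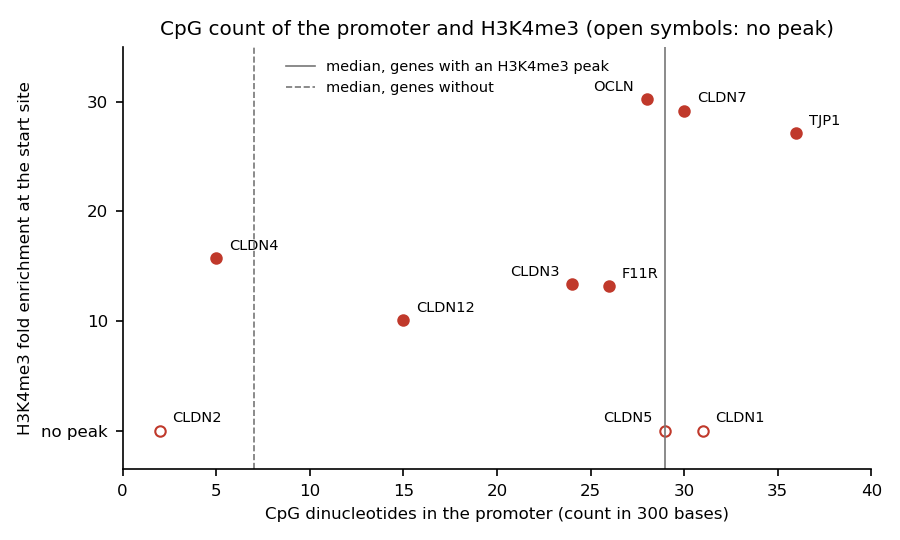
Number of CpG dinucleotides in the 300-base promoter against the H3K4me3 fold enrichment at the TSS (linear axis; open symbols have no peak), with the medians of genes with and without an H3K4me3 peak, 29 and 7 CpG, as lines. CLDN1 and CLDN5 lie at the solid line without a peak, and CLDN4 lies left of the dashed line with a fold enrichment of 15.8.

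Among 45 other tight junction genes, H3K4me3 stood at the TSS of 26, H3K9Ac of 24, H3K4me1 of 24, CTCF of 5 and H3K27me3 of 1, and 15 had no mark. Over all protein-coding genes the shares were 59.1%, 58.5%, 49.1%, 13.6% and 1.22% in that order, and 33.9% had no mark. The counts of the 45 thus lay near the shares of all genes. Of 17 other claudins, CLDN23 alone had H3K4me3 (16.5), with H3K9Ac and H3K4me1 as in CLDN3 and CLDN4, and 13 had no mark, like CLDN5. CLDN9 (7.52) and CLDN19 (4.35) had H3K4me1 alone, like CLDN2. CLDN6 had H3K9Ac (17.9), H3K4me1 (6.10) and CTCF (7.05) without H3K4me3, and had H3K4me3 at another annotated start. None had the CTCF-only pattern of CLDN1 at its canonical start. At other annotated starts CLDN16 did, since the CTCF peak over the CLDN1 TSS also contained a CLDN16 start, 95 bp from it on the opposite strand.

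The genes of the polarity complexes, which place the junction along the cell's axis, had H3K4me3 in 9 of 9, beside 59.1% of all genes and 26 of 45 of the list. PRKCZ (37.6) and PARD3 (35.4) had the highest fold enrichments of the list, followed by MARVELD3 (34.1), a relative of occludin, all above the 30.2 of OCLN. H3K4me3 was at 5 of 5 bicellular and tricellular membrane proteins at 3 of 4 plaque scaffolds, at 7 of 7 other associated proteins and at 1 of 3 immunoglobulin-type adhesion proteins. CXADR and SYMPK had the pattern of CLDN7. JAM3, a relative of F11R, had an H3K27me3 peak of 11335 bp at its canonical start and no other mark there. At another annotated start JAM3 had CTCF.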

How the data were processed

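PIXUL-ChIP-seq peak lists of HCT116 cells were used as the authors deposited them, 1 list per library, with each library assigned to its mark by its title. Of 7 libraries, 6 were used. Per the study's methods, the authors aligned reads to hg19 with BWA 0.7.12 and ran MACS2 in broad mode with a cutoff of 0.1 on each library, while the submitters' processing notes name MACS 1.4.2, SAMtools 0.1.19 and bcl2fastq 2.20.0.442. The labels and the methods differ on whether reads were single or paired. The authors deposited, for each peak, the fold enrichment (a ratio), the −log10 p-value and the −log10 q-value of the caller, and a score that was not used. The lists hold no read counts, so depth is unknown, and depth can change how many peaks pass the limits and how wide they are.

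Peaks were then filtered by fold enrichment and q-value as the methods set out. Genes and canonical start sites came from GENCODE 44 on hg19, with the 5′ end of the gene for 282 genes without a canonical transcript. An overlap needed 1 bp. Promoters covered 250 bases before and 50 bases after the TSS. Copies were searched with minimap2 2.31-r1302. Scripts ran on Python 3.11.15 with pandas 2.3.3, numpy 2.4.6, pyfaidx 0.9.0.4, scipy 1.17.1, samtools 1.23.1 and matplotlib 3.10.9, and bedtools 2.31.1 gave the same overlaps for all 6 marks. The counting of overlaps, tested on simulated data, recovered 600 of 600 planted overlaps with 0 wrong calls.

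The members, the gene lists and the marker genes were chosen with earlier results of these data known. All 10 members are named, together with neighbours whose TSS lies in a peak of a window, and other tight junction genes that share a member's pattern, carry H3K27me3 or have the 3 highest H3K4me3 values. Neighbouring long non-coding RNAs are not named. PECAM1, a planned marker, was not analysed here. With 1 library per mark no test was possible, and none was made.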

Additional observations from a re-analysis of the deposited data

How the results depend on the processing

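No paired analysis was possible because there was 1 library for every mark. Of 117 recomputed values, 100 stayed within 1.5 times the value reported and 17 did not; of the 36 recomputed counts of members with a peak at the TSS, 2 moved. With all deposited intervals, CTCF was at the TSS of 5 members in place of 2, H3K36me3 in the window of 9 in place of 0 and H3K27me3 in the window of 1 in place of 0. The CTCF intervals then rose to 26 from 13, with the core in 1, and the other tight junction genes with a mark at the TSS to 4 for H3K36me3, 4 for H3K27me3 and 15 for CTCF. When the stricter limits replaced its own, H3K4me1 was at the TSS of 2 members in place of 8. With 25 kb on each side, the windows held 17 H3K4me3 and 19 H3K9Ac peaks, in place of 11 and 12. With no flank, CTCF was in the gene body of 5 members in place of 8, with 8 peaks in place of 13. The median H3K36me3 cover over the members was 0% with peaks past the limits and 1.16% with q-values below 0.01 and fold enrichments above 2, in place of 5.56%. Allowing 1 mismatch gave a core in 7 of 13 CTCF peaks in place of 0, and in 65.9% of all CTCF peaks past the limits in place of 22.4%. Any annotated start, chosen after seeing the data, gave 8 other tight junction genes with CTCF in place of 5. The median H3K36me3 cover over the canonical transcript, also chosen after seeing the data, was 7.66% and stayed within 1.5 times. Single members moved more, among them CLDN12 (8.81% to 52.1%), TJP1 (21.5% to 46.7%) and CLDN4 (2.32% to 0%), whereas OCLN and F11R hardly changed. The cause was not tested for these changes, other than those in which the alternative itself admits more or fewer intervals. The lists give no depth, so a missing peak is not shown to be an absent mark.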
